A study of Mus musculus with 12 samples.

Results

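Iron storage, uptake and sensing genes were examined as a group of 7 named genes, *Fth1*, *Ftl1*, *Tfrc*, *Aco1*, *Ireb2*, *Fbxl5* and *Ncoa4*, out of the 41255 genes of the mRNA table and the 10080 genes of the ribosome footprint table. They were chosen by name for their roles, with earlier results of these data known. The cells were Ba/F3, a mouse line labelled as lymphoid, in which a retroviral vector supplied human *RPL10* cDNA, encoding a protein of the large ribosomal subunit, either *WT* or with the R98S mutation. An shRNA lowered endogenous *Rpl10* in both groups, and each culture was grown from a single cell, so a replicate is 1 clone. There were 3 *RPL10 R98S* clones (11, 13 and 35) and 3 *RPL10 WT* clones (28, 29 and 36), each with 1 library of ribosome-protected fragments (RPF) and 1 mRNA library, 12 libraries in all. All cells received cycloheximide at 100 μg/ml for 5 min. P-values here measure the spread between clones, and each clone has its own history of transduction and selection, so effects of the mutation and of the choice of clones cannot be told apart.

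Cells hold iron within narrow limits through the iron regulatory proteins, IRP1 (encoded by *Aco1*) and IRP2 (encoded by *Ireb2*). When iron is scarce these proteins bind iron-responsive elements, short RNA hairpins. Bound near the start of the ferritin mRNAs they block translation, and bound in the 3′ untranslated region of the transferrin receptor mRNA they protect it from decay. *Fbxl5* encodes the iron-binding ubiquitin ligase subunit that marks IRP2 for degradation, and *Ncoa4* encodes the receptor that carries ferritin to the lysosome, where its iron is freed.

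The hairpins are shown because they are what links *Fth1*, *Ftl1* and *Tfrc*. The transcripts of the members (GENCODE M21 annotation, mm10 build) were searched on the sense strand for the loop CAGTGN closed by 5 base pairs, with an unpaired C before the left arm. In the 30-base windows below the 6 loop bases are in capitals. The *Fth1* site is in the 5′ untranslated region, in exon 2 of 5 of the annotated transcript with the longest coding sequence and length, at chr19:9982731-9982760 on the plus strand. The *Ftl1* site is in the 5′ untranslated region, in exon 1 of 4, at chr7:45459779-45459808 on the minus strand. In these transcripts 669 bases precede the *Fth1* loop, in a 5′ untranslated region of 795 bases. For *Ftl1* 89 bases precede it, in a region of 253 bases. An *Fth1* transcript of 929 bases with the same coding length is also annotated, and the distance in it was not examined.

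Fth1: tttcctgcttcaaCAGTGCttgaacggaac
Ftl1: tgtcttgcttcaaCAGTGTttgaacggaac

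*Tfrc* had 4 matches, all in the 3′ untranslated part of its last exon on the plus strand of chromosome 16, at chr16:32631218-32631247, chr16:32631597-32631626, chr16:32631662-32631691 and chr16:32631709-32631738. They are given in that order.

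Tfrc site 1: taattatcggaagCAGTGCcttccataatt
Tfrc site 2: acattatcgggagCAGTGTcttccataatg
Tfrc site 3: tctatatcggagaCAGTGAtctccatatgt
Tfrc site 4: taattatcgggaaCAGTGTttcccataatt

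These letters were not found in the transcripts of *Aco1*, *Ireb2*, *Fbxl5* or *Ncoa4*. The same motif occurred in 0.106% of 9467 5′ untranslated regions, in 0.781% of 9732 coding sequences and in 0.577% of 9702 3′ untranslated regions of genes measured here. A match describes letters in a transcript and does not show binding.

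All values are read counts divided by a size factor for each library, called normalized counts. Log2 fold changes, with their standard error (SE), compare *R98S* with *WT* clones on the log2(value + 1) scale, which understates changes of low genes, and a change was called at a Benjamini-Hochberg adjusted p under 0.1 (limma, adjusted over all genes tested). Gene positions are those of GENCODE M21 on mm10. Recovered depths ran from 6617457 reads (*WT* clone 28) to 23136595 for mRNA and from 3477723 (*R98S* clone 35) to 10883086 for RPF. Mouse *Rpl10* mRNA, to which transgene and endogenous reads can both contribute, had a log2 fold change of -0.42 (limma adjusted p = 0.551), so it does not check the labels. Markers of the labelled cell type were in part absent. All 4 markers of IL-3-dependent haematopoietic cells were present, but only 2 of 9 pro-B and lymphoid markers (*Cd79a* and *Cd79b*) reached a mean of 10 normalized counts, and *Pax5*, *Rag1* and *Il7r* were listed at 0 in every mRNA library.

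In *R98S* clones, ribosome footprints on ferritin heavy chain mRNA were lower while its mRNA was not called changed, and *Fbxl5* mRNA was lower. *Fbxl5* footprints also passed the test, but that call was lost in 5 of 6 fits that left out a clone and kept in 5 of 8 other alternatives. For mRNA, 1 of 6 tested members changed, namely *Fbxl5*, which fell. Among all 11344 tested genes, 3.91% were called lower and 3.03% higher. For RPF, 2 of 6 tested members changed, *Fth1* and *Fbxl5*, both lower, against 4.62% called lower and 3.13% called higher of 9580 tested genes. Translation efficiency (TE), the ratio of RPF to mRNA of the same clone, passed for 0 of 6 members with limma, and for 0.0221% (lower) and 0% (higher) of 9043 tested genes. At an unadjusted p under 0.05, 2 members (*Fth1* and *Tfrc*) would count for TE, and DESeq2 called 1 and edgeR 0. The median log2 fold change of the members was -0.26 for mRNA, -0.42 for RPF and -0.02 for TE, beside 0.01, 0.01 and -0.00 over all tested genes. In bulk libraries of this kind, a smaller share of expressing cells and less RNA per cell cannot be told apart.

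**Figure D1:**
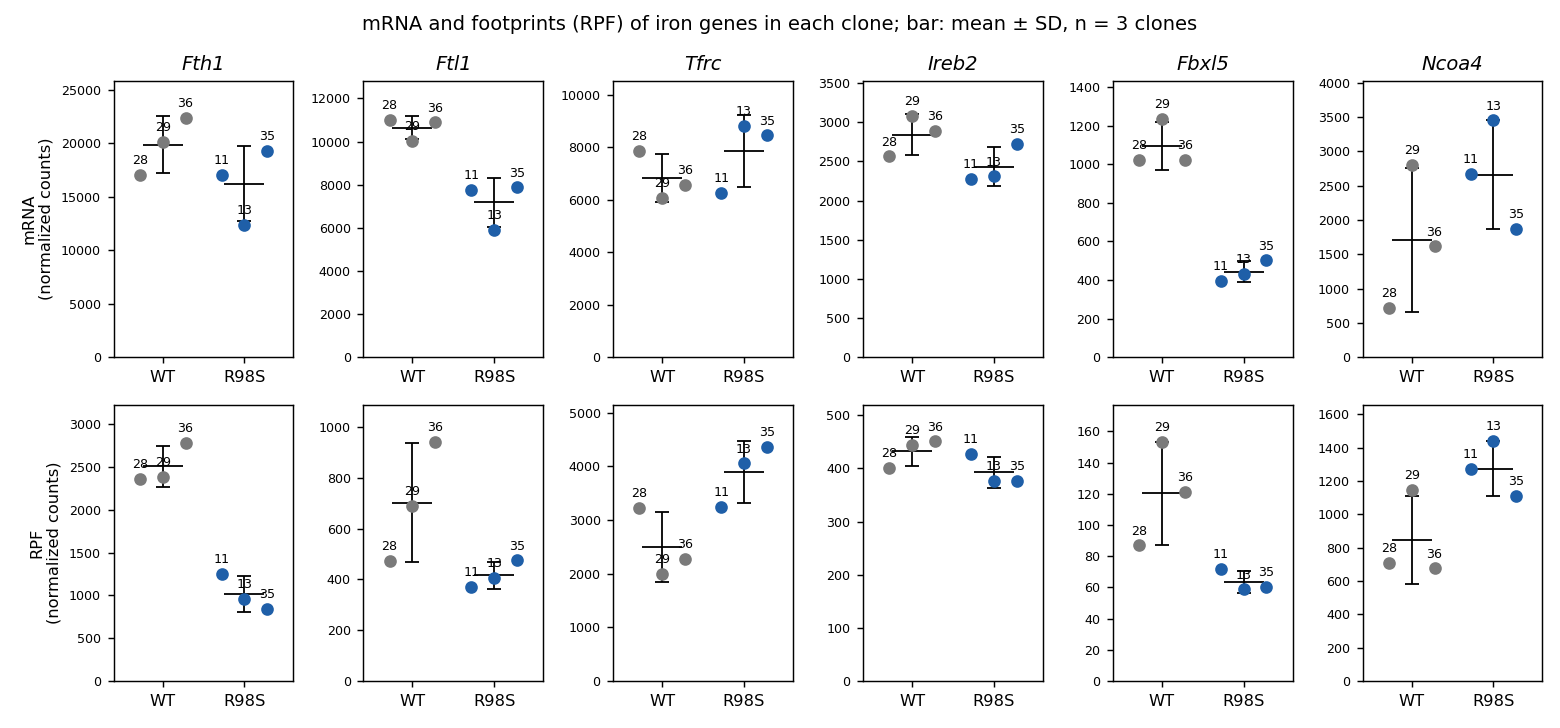
Normalized counts of mRNA (upper row) and RPF (lower row) for the 6 tested members, with a point for each clone (clone number above it) and a bar for the mean ± SD of 3 clones per genotype. RPF of *Fth1* lie between 845 and 1253 in *R98S* clones and between 2355 and 2784 in *WT* clones, while its mRNA values overlap.

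*Fth1* (chr19:9980598-9985098, plus strand) encodes the ferritin heavy chain, the subunit whose ferroxidase site oxidizes iron on its way into the ferritin shell. *R98S* clones 11, 13 and 35 had 1253, 959 and 845 normalized RPF counts, and *WT* clones 28, 29 and 36, in that order here and in what follows, had 2355, 2383 and 2784. Every *R98S* clone was below every *WT* clone, a pattern seen in the lower direction for 12.8% of tested genes. The means were 1019 ± 211 (SD, n = 3) and 2507 ± 240.3 (SD, n = 3), 2.46-fold lower in *R98S* clones. The log2 fold change was -1.31 (SE 0.19, limma adjusted p = 0.00597), and 194 of 9580 genes had a lower one. An exact two-sided permutation test over the clones gave p = 0.1, the smallest it can give with 3 against 3. The call held when each clone was left out (adjusted p from 0.00713 to 0.0378, limma) and under the other alternatives (from 3.24e-07 to 0.00955).

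The mRNA of *Fth1* was at 17037, 12397 and 19297 normalized counts in the *R98S* group against 17041, 20164 and 22376 in the *WT* group. *R98S* clone 35 was above *WT* clone 28, so the groups overlapped. Its log2 fold change was -0.31 (SE 0.21, limma adjusted p = 0.50). The TE of *Fth1* was 0.0736, 0.0774 and 0.0438 in the *R98S* group against 0.138, 0.118 and 0.124 in the *WT* group. These groups did not overlap, which held in the lower direction for 7.36% of tested genes. The log2 fold change of TE was -1.01 (SE 0.27, unadjusted p = 0.00390, limma adjusted p = 0.590), and 34 of 9043 genes had a lower one. The adjusted p was 0.0375 with DESeq2 on recovered reads and 0.0550 with limma array weights, and over all alternatives it ran from 0.0375 to 1.00. Whether the footprints fell beyond the mRNA therefore depends on the test used.

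*Ftl1* (chr7:45457944-45459884, minus strand) encodes the ferritin light chain, which has no ferroxidase site and supports mineral formation inside the shell. Its mRNA was at 7777, 5889 and 7881 normalized counts in the *R98S* group against 10999, 10028 and 10889 in the *WT* group. The groups did not overlap, as for 11.6% of all tested genes in the lower direction and 11.9% in the higher. The log2 fold change of -0.58 (SE 0.17, limma adjusted p = 0.109) missed the threshold, and it passed with DESeq2 (adjusted p = 0.0399), with array weights (0.0239) and with chromosome medians removed (0.0297). RPF of *Ftl1* were at 369, 405 and 475 in the *R98S* group against 474, 691 and 944 in the *WT* group. *WT* clone 28 lay just below *R98S* clone 35, and the log2 fold change was -0.71 (SE 0.25, limma adjusted p = 0.139). Without clone 28 it was -0.96 (limma adjusted p = 0.0595), and the threshold was also passed with DESeq2, array weights and chromosome medians removed (adjusted p from 0.0193 to 0.143 over the alternatives that keep all clones). TE of *Ftl1* had a log2 fold change of -0.13 (SE 0.31, limma adjusted p = 0.920).

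Both ferritin genes have processed copies in the genome, which can split or remove reads. Of the 30-base windows of the *Fth1* coding sequence, 123 of 457 (26.9%) also occurred elsewhere in the genome, in 3 bins of 5 kb. For *Ftl1* it was 400 of 460 windows, in 23 such bins, so its values are uncertain. Copies at bins sharing many windows with *Ftl1*, namely *Ftl1-ps1* (400), *Ftl2-ps* (297) and *Ftl1-ps2* (221), were not analysed here, as the table has no value under these names. Listed mRNA values of other annotated copies were low, from 0 to 2.69 normalized counts for *Gm6977* and from 5.37 to 15.7 for *Fth-ps2* (both copies of *Fth1*), and from 0 to 2.69 for *Gm15590* (334 windows) and 7.37 to 15.9 for *Gm12164* (168 windows), both copies of *Ftl1*. How many reads were lost to mapping at several places was not tested.

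Each ferritin shell is built of heavy and light chains together, so their ratio was compared as normalized counts per kb of each gene. The level of the mRNA ratio depends on the transcript lengths used, while the difference between groups does not. The mRNA ratio of *Fth1* to *Ftl1* was 1.42, 1.36 and 1.59 in the *R98S* group against 1.00, 1.30 and 1.33 in the *WT* group. All *R98S* values were above all *WT* values, by 0.27 on the log2 scale (exact two-sided permutation test, p = 0.1, the smallest possible), and by 0.14 without *WT* clone 28. In RPF the ratio was 3.42, 2.38 and 1.79 in the *R98S* group against 5.00, 3.47 and 2.97 in the *WT* group. *R98S* clone 11 lay between the *WT* clones, and the log2 difference of -0.61 gave p = 0.2 (exact two-sided permutation test), with a range from -0.85 to -0.38 when a clone was left out. Neither difference could have passed a threshold of 0.05 in this design.

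*Tfrc* (chr16:32608920-32632794, plus strand) encodes the transferrin receptor, which brings transferrin-bound iron into the cell. RPF of *Tfrc* were at 3248, 4056 and 4369 normalized counts in the *R98S* group against 3227, 1987 and 2278 in the *WT* group. The groups did not overlap, but *R98S* clone 11 and *WT* clone 28 nearly touched. Such separation in the higher direction occurred for 12.5% of tested genes in RPF. On the log2 scale the difference was 0.66 (SE 0.22, unadjusted p = 0.0114, limma adjusted p = 0.120) and missed the threshold. Without *WT* clone 28 it was 0.86 (limma adjusted p = 0.0595), and without *R98S* clone 13 it was 0.62 (limma adjusted p = 0.333). It passed with DESeq2, array weights and chromosome medians removed, and the adjusted p ran from 0.0478 to 0.125 over the alternatives that keep all clones.

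*Tfrc* mRNA was at 6276, 8830.1 and 8457 normalized counts in the *R98S* group against 7855, 6089 and 6578 in the *WT* group. *R98S* clone 11 fell among the *WT* clones, and the log2 fold change was 0.19 (SE 0.19, limma adjusted p = 0.655). TE of *Tfrc* was 0.518, 0.459 and 0.517 in the *R98S* group against 0.411, 0.327 and 0.346 in the *WT* group. The groups did not overlap, as for 7.45% of tested genes in the higher direction. The log2 fold change of TE was 0.47 (SE 0.18, unadjusted p = 0.0288, limma adjusted p = 0.629), and it passed with array weights (adjusted p = 0.0468). None of the 30-base windows of the *Tfrc* coding sequence (0 of 2200) occurred elsewhere in the genome.

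**Figure D2:**
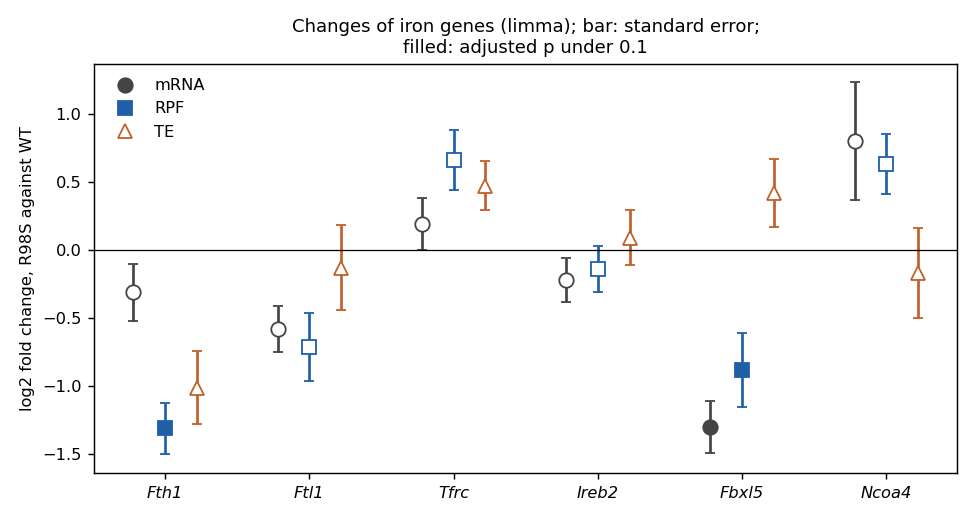
Log2 fold changes of *R98S* against *WT* clones for mRNA (circles), RPF (squares) and TE (triangles) of the 6 tested members, with bars for the standard error and filled symbols for an adjusted p under 0.1 (limma). Filled symbols are RPF of *Fth1* at -1.31 and mRNA and RPF of *Fbxl5* at -1.30 and -0.88.

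*Aco1* (chr4:40143081-40198338, plus strand) encodes IRP1, which is cytosolic aconitase when it holds an iron-sulfur cluster and binds RNA when it does not. Its mRNA was all but undetected. *R98S* clones 11, 13 and 35 had 2, 0 and 1 reads, and *WT* clones 28, 29 and 36 had 0, 1 and 0. The RPF table, which lists genes with at least 1 read in each library, has no entry for *Aco1*, so it was not tested in any assay. A count of 0 to 2 reads gives no direction.

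*Ireb2* (chr9:54863789-54912530, plus strand) encodes IRP2, which is controlled by degradation more than by its mRNA. Its mRNA was at 2275, 2309 and 2722 normalized counts in the *R98S* group against 2565, 3078 and 2888 in the *WT* group. RPF were at 427, 376 and 376 in the *R98S* group against 400.3, 445 and 451 in the *WT* group. Groups overlapped in both assays. The log2 fold change was -0.22 for mRNA (SE 0.16, limma adjusted p = 0.526), -0.14 for RPF (SE 0.17, limma adjusted p = 0.704) and 0.09 for TE (SE 0.20, limma adjusted p = 0.912). Of the 2 IRP genes, *Ireb2* was thus the one with measurable mRNA, at 2435 ± 249 (SD, n = 3) in the *R98S* group and 2843 ± 259.6 (SD, n = 3) in the *WT* group.

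*Fbxl5* (chr5:43744615-43821638, minus strand) carries a hemerythrin-like domain that senses iron and lets the ligase act on IRP2. Its mRNA was at 397, 434 and 502 normalized counts in the *R98S* group against 1020.4, 1235 and 1022 in the *WT* group. The lowest *WT* clone was far above the highest *R98S* clone, and the means were 2.46-fold apart. Groups without overlap in the lower direction occurred for 11.6% of tested genes in mRNA. *Fbxl5* mRNA fell, with a log2 fold change of -1.30 (SE 0.19, limma adjusted p = 0.00557), and the call held without each clone (adjusted p from 0.00773 to 0.0345, limma).

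RPF of *Fbxl5* rested on few reads, from 36 in *R98S* clone 35 to 147 in *WT* clone 29. They were at 71.8, 58.7 and 60.5 normalized counts in the *R98S* group against 86.9, 153 and 121 in the *WT* group. The groups did not overlap, as for 12.8% of tested genes in the lower direction. The log2 fold change was -0.88 (SE 0.27, limma adjusted p = 0.0985), just inside the threshold. The call was lost without clone 11 (adjusted p = 0.192), 13 (0.287), 35 (0.118), 29 (0.217) or 36 (0.222) in limma, and was kept without clone 28 (0.0828). With all clones it was also lost with no filter (0.107), TMM factors (0.103) and chromosome medians removed (0.107), and kept in 5 of 8 such alternatives. TE of *Fbxl5* had a log2 fold change of 0.42 (SE 0.25, limma adjusted p = 0.675), with overlapping groups.

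*Ncoa4* (chr14:32159865-32179855, plus strand) delivers ferritin for degradation when iron is low. Its mRNA was at 2668, 3452 and 1871 normalized counts in the *R98S* group against 719.7, 2808 and 1616 in the *WT* group. RPF were at 1274, 1439 and 1113 in the *R98S* group against 709, 1148 and 676 in the *WT* group. Both sets overlapped, and *WT* clone 28 was low in mRNA, with 268 reads. On the log2 scale the difference was 0.80 for mRNA (SE 0.43, limma adjusted p = 0.375) and 0.63 for RPF (SE 0.22, limma adjusted p = 0.144). Without clone 28 the mRNA value was 0.28, and without clone 29 the RPF value was 0.87 (limma adjusted p = 0.0389). TE had a log2 fold change of -0.17 (SE 0.33, limma adjusted p = 0.893). These values are uncertain, since 96.6% of the 30-base windows of the *Ncoa4* coding sequence also occur in the pseudogene *Gm6768*, itself listed at 0 to 5.37 normalized counts of mRNA.

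Levels of different genes were compared per kb. In *WT* clones *Fth1* mRNA stood at 13294 ± 1794 normalized counts per kb (SD, n = 3) and *Ftl1* mRNA at 10990.3 ± 549. With the transcript lengths used, 1494 and 968 bases, these neighbours did not differ beyond their spread. *Fth1* also has a transcript of 929 bases with the same coding length, and 3469 bases with all exons joined (*Ftl1* 968 and 1340). Which of the ferritin mRNAs stands higher, and how far, therefore depends on the length used. *Tfrc* followed at 1399 ± 186, clearly apart from both ferritins. *Ireb2* (493 ± 45), *Ncoa4* (422 ± 258) and *Fbxl5* (382 ± 43.1) came next, and *Ncoa4* did not differ from its neighbours beyond their spread. In *R98S* clones *Fbxl5* mRNA was at 155 ± 18.7 per kb, below *Ireb2* at 422 ± 43.1.

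In RPF per kb of counted coding sequence, the order in *WT* clones was again *Fth1*, *Ftl1* and *Tfrc*, at 5159 ± 494, 1437 ± 481 and 1121 ± 291 (SD, n = 3), and the last pair did not differ beyond their spread. In *R98S* clones *Fth1* and *Tfrc* stood at 2097 ± 434 and 1746 ± 259.6, which did not differ beyond their spread, and *Ftl1* came after both at 851 ± 110.5. The RPF ratio of *Tfrc* to *Fth1* per kb was 0.565, 0.922 and 1.13 in *R98S* clones 11, 13 and 35 and 0.299, 0.182 and 0.178 in *WT* clones 28, 29 and 36. This ratio was higher in each *R98S* clone than in any *WT* clone. It was not among the planned comparisons and was not tested. It joins the member with the largest RPF fall and the member with the largest RPF rise. Because each of these already separated the groups in RPF, the separation of their ratio follows and adds no result.

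Footprint density per mRNA, which is RPF per kb over mRNA per kb, was ranked within each clone among 8788 genes, because the tables were normalized separately and the ratio has no absolute scale. *Ftl1* was near the bottom in both groups, at percentile 1.65 ± 1.02 (SD, n = 3) with R98S and 2.01 ± 1.16 with WT. Most *Ftl1* windows occur elsewhere in the genome, and the part of lost reads in this value was not tested. *Fbxl5* was also low, at 6.68 ± 3.30 and 3.08 ± 0.120. *Ireb2* stood at 17.1 ± 5.28 and 15.4 ± 3.18, and *Ncoa4* at 76.5 ± 8.76 and 77.6 ± 13.4.

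The density values of *Fth1* and *Tfrc* did not overlap between genotypes. Those of *Fbxl5* overlapped, though its percentiles did not (10.2, 6.27 and 3.61 in *R98S* clones, 2.99, 3.04 and 3.22 in *WT* clones). *Fth1* was at percentiles 7.44, 9.32 and 1.97 in *R98S* clones and at 28.5, 19.3 and 22.1 in *WT* clones. *Tfrc* was at percentiles 78.9, 71.8 and 78.4 in *R98S* clones and at 62.3, 55.3 and 59.2 in *WT* clones. In *WT* clones both ferritin mRNAs carried fewer footprints per mRNA than most genes. In *R98S* clones the *Fth1* values were lower still and the *Tfrc* values higher. Neither TE change passed in the main limma fit (adjusted p = 0.590 and 0.629). A change of the length used for a gene multiplies all 6 clones alike, so it moves the percentile but not the separation of density values. With the shortest *Fth1* transcript of the same coding length, its *WT* percentile was 11.0 in place of 23.3, and with all exons joined it was 42.0.

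**Figure D3:**
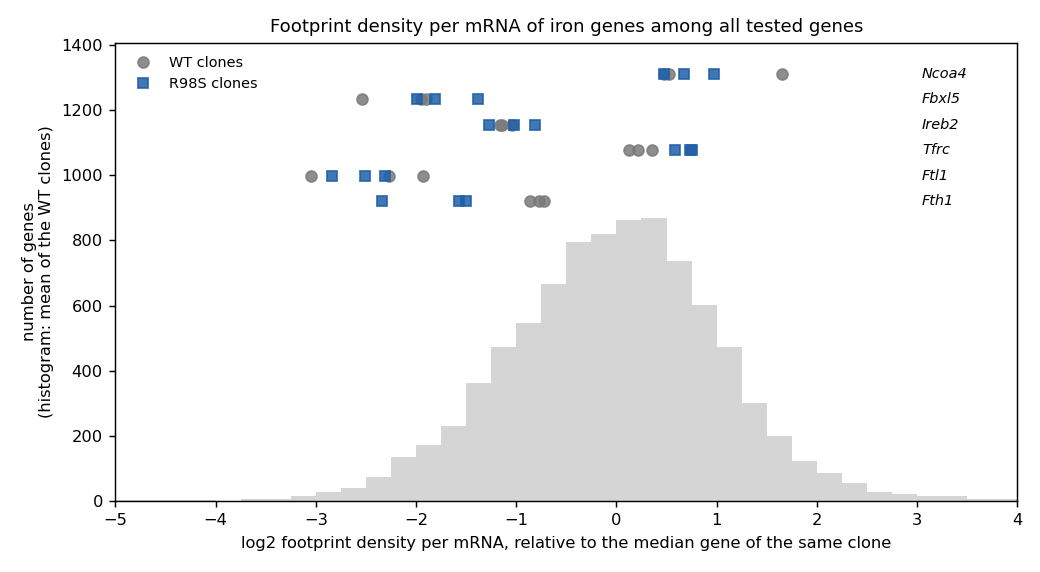
Histogram of log2 footprint density per mRNA over 8788 genes (mean of the *WT* clones, relative to the median gene), with the 3 *WT* (circles) and 3 *R98S* (squares) clones of each member above it. *R98S* clones lie to the left of *WT* clones for *Fth1* and to the right for *Tfrc*, and *Ftl1* lies in the left tail in both.

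The other genes with the hairpin motif gave a background for the ferritins. The 5′ untranslated regions of 10 genes held it, and with limma *Fth1* alone of these passed for RPF, while 0 of 10 passed for mRNA and 0 of 9 tested passed for TE. For RPF 4 genes had an unadjusted p under 0.05, DESeq2 called *Fth1* and *Ftl1*, and edgeR called *Fth1*. At the same unadjusted level there were 2 for mRNA (*Ftl1* and *Serpina3g*) and 1 for TE (*Fth1*), and DESeq2 called *Ftl1* for mRNA and *Fth1* for TE while edgeR called 0 in both. The median RPF log2 fold change of the other 8 genes was 0.05. The motif was in the 3′ untranslated regions of 56 genes, and *Tfrc* was the one gene among them with 4 matches. For mRNA 5 of these 56 passed, *Rfc2* higher and *Crtc1*, *Fam102b*, *Nsf* and *Ptgs1* lower. For RPF 2 of 53 passed, *Lrrc40* and *Nsf*, both lower. Over all tested genes 3.03% were called higher and 3.91% lower for mRNA, and 3.13% and 4.62% for RPF. These few calls are therefore not a result about the motif.

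Further iron genes were taken from 5 lists of 81 genes in all, chosen by function. For mRNA, 0 of 70 tested genes passed with limma, with 9 at an unadjusted p under 0.05, and DESeq2 called *Urod* higher and *Slc39a14* lower and edgeR *Slc39a14* lower. For RPF, 3 of 69 rose (4.35%) and 2 fell (2.90%), shares near those of all genes. For TE, 0 of 69 passed with limma, DESeq2 or edgeR, with 6 at an unadjusted p under 0.05 in limma. The median log2 fold change over the lists was -0.07 for mRNA, 0.03 for RPF and 0.06 for TE. Leaving out *WT* clone 28 left 2 higher in RPF, *Slc25a38* and *Tfr2*, and 0 lower, and in mRNA it left *Alad* and *Ndor1* higher and *Fech* lower (limma adjusted p = 0.0655, 0.0395 and 0.0337).

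Of 15 tested genes of haem synthesis and breakdown, 1 rose and 2 fell in RPF. DESeq2 and edgeR also called *Alad*, an early enzyme of haem synthesis, at 1178, 1448 and 1164 against 952, 782 and 825, which missed the threshold with limma (log2 fold change 0.56, adjusted p = 0.104). *Slc25a38*, the mitochondrial carrier that brings in glycine for haem synthesis, was at 137, 116 and 121 normalized RPF counts in the *R98S* group against 55.4, 52.1 and 68.5 in the *WT* group, with a log2 fold change of 1.08 (SE 0.24, limma adjusted p = 0.0333). Its mRNA overlapped between groups (0.41 on the log2 scale, limma adjusted p = 0.559). *Blvrb*, a biliverdin reductase, was at 360.0, 443 and 544 against 891, 839 and 722 in RPF, and fell by 0.88 on the log2 scale (limma adjusted p = 0.0375). *Hmox2*, the constitutive haem oxygenase, was at 356, 384 and 563 against 707, 802 and 708, and fell by 0.79 (limma adjusted p = 0.0592). With 1 clone removed at a time, the call held in 4 of 6 cases for *Slc25a38*, 3 of 6 for *Blvrb* and 1 of 6 for *Hmox2*, with the highest adjusted p at 0.144, 0.148 and 0.232 (limma).

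Of 25 genes of iron-sulfur cluster assembly, 2 rose in RPF and 0 fell. *Bola3*, which helps to pass clusters on to mitochondrial target proteins, was at 372, 299 and 247 normalized RPF counts in the *R98S* group against 122, 176 and 186 in the *WT* group (log2 fold change 0.92, limma adjusted p = 0.0576). *Nubp1*, a scaffold of cytosolic cluster assembly, was at 507, 514 and 349 against 259.8, 248 and 320.2 (0.71, limma adjusted p = 0.0919). The calls held in 2 of 6 cases for *Bola3* and 1 of 6 for *Nubp1* when a clone was left out, with the highest adjusted p at 0.218 and 0.310 (limma). For mRNA the log2 fold changes were 0.12 and 0.32 (limma adjusted p = 0.801 and 0.455).

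In the remaining lists no gene passed in any assay with limma. Of 21 genes of iron transport and storage, 16 were tested for mRNA and 15 for RPF, with 1 and 3 genes at an unadjusted p under 0.05, and DESeq2 called *Slc39a14* lower in both assays. The extremes were *Tfr2*, another transferrin receptor that senses loaded transferrin, at 0.82 for mRNA (limma adjusted p = 0.311) and 0.64 for RPF (limma adjusted p = 0.382), and *Slc39a14*, a metal importer, at -0.68 (limma adjusted p = 0.102) and -0.79 (limma adjusted p = 0.136). Of 11 genes of ferritin and IRP2 turnover, *Rbx1*, the RING subunit of the ligase that uses *Fbxl5*, had the lowest log2 fold changes, -0.65 for mRNA (limma adjusted p = 0.211) and -0.69 for RPF (limma adjusted p = 0.102). *Gabarap* and *Map1lc3b*, both autophagosome proteins, had the highest at 0.18 for mRNA and 0.49 for RPF (limma adjusted p = 0.632 and 0.434). Only 1 gene of that list had an unadjusted p under 0.05 for mRNA and 1 for RPF, where DESeq2 called *Rbx1* lower. Of 7 other mRNAs with reported iron-responsive elements, 3 were tested, with none at an unadjusted p under 0.05 and none called by DESeq2 or edgeR. The lowest log2 fold change among them for mRNA was -0.30 (*Cdc14a*, limma adjusted p = 0.507), and the highest for RPF was -0.04 (*Slc11a2*, limma adjusted p = 0.936). The iron exporter *Slc40a1* had values above 0 in 1 mRNA library only, and *Alas2*, the erythroid enzyme of haem synthesis, stayed between 2.69 and 11.5 normalized counts.

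**Figure D4:**
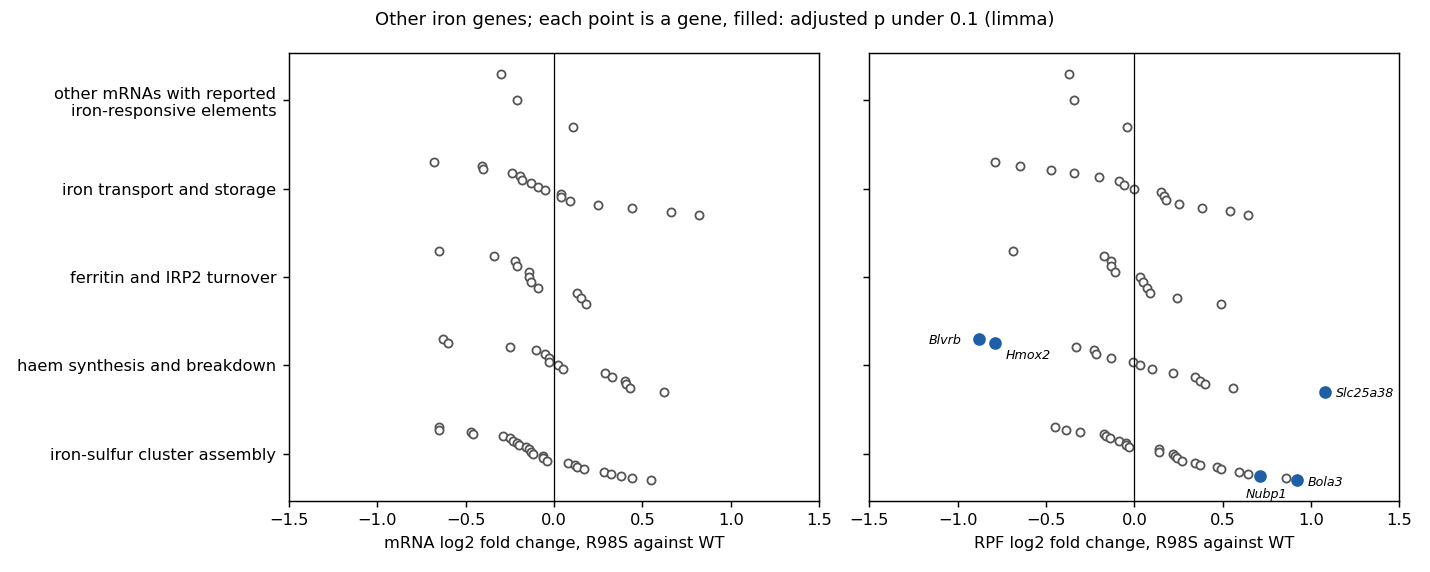
Log2 fold changes of mRNA (left) and RPF (right) of *R98S* against *WT* clones for the tested genes of 5 iron lists, with each point a gene and filled points at an adjusted p under 0.1 (limma). The 5 filled points, all for RPF, are *Slc25a38*, *Bola3* and *Nubp1* on the higher side and *Blvrb* and *Hmox2* on the lower side.

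The genes whose profile was most like that of *Fth1* over the 12 libraries, each assay centred on its mean, were *Myef2* (Pearson's r 0.929), *Pex10* (0.920) and *Rgs18* (0.915) among 9042 genes. For *Tfrc* they were *Foxred1* (0.920), *Map4k1* (0.900) and *Slc25a29* (0.896). *Fth1* and *Tfrc* themselves had r = -0.819. Libraries of 1 clone and of 1 genotype are not independent points, so these values are a description.

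Some sums of cell type markers also separated the genotypes, while the erythroid, macrophage and T cell sums overlapped. None of these sums was tested. Among single genes, 11.9% separated in the higher and 11.6% in the lower direction for mRNA, so such separation is common here. The 9 pro-B and lymphoid markers summed to 1350.5 to 1671 normalized mRNA counts in *R98S* and 893 to 1155 in *WT* clones, and the 4 IL-3-dependent markers to 99455 to 120902 and 46935 to 92744. Most of the IL-3-dependent sum was *Csf2rb* and *Csf2rb2*. The other markers of that list overlapped between groups. *Ptprc* was at 5001, 4375 and 3802 in *R98S* and 4871, 11845 and 7611 in *WT* clones, and *Il3ra* at 859, 560.2 and 791 and at 1112, 752 and 719. The 6 mast cell and basophil markers summed to 12073 to 15792 normalized mRNA counts in *R98S* and 20365 to 26532 in *WT* clones, 3 of the 6 reached a mean of 10 (*Gata2*, *Cpa3* and *Mcpt8*), most of the sum was *Gata2*, *Cpa3* went the other way (644, 253 and 787 in *R98S* clones, 13.4, 174 and 54.9 in *WT* clones), and the defining marker *Kit* was listed at 0 in every mRNA library. The erythroid markers, 4 of 7 with a mean of 10 or more, summed to 461 to 677 in *R98S* and 346 to 714 in *WT* clones, with *Slc4a1* at 0 throughout. Of the macrophage markers only *Cd68* reached a mean of 10, and no T cell marker did. *Hba-a1*, an alpha globin gene, was at 4.76, 1.64 and 2.58 in the *R98S* group against 169, 28.9 and 36.8 in the *WT* group, the highest again being clone 28. Median mRNA differences of whole chromosomes (*R98S* minus *WT*, log2) were 0.18 for chromosome 7, which holds *Ftl1*, and 0.19 for chromosome 14, which holds *Ncoa4*, and they were -0.00 for chromosome 19 (*Fth1*), -0.06 for chromosome 16 (*Tfrc*) and -0.04 for chromosome 5 (*Fbxl5*). With chromosome medians removed, *Fth1* in RPF and *Fbxl5* in mRNA stayed past the threshold, *Fbxl5* in RPF did not (limma adjusted p = 0.107), and *Ftl1* in mRNA (0.0297) and *Ftl1* and *Tfrc* in RPF (0.0696 and 0.0848) came to pass it. The part of cell state in the iron gene results was not tested.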

How the data were processed

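Total mRNA and ribosome footprints were measured in 6 Ba/F3 clones. The authors deposited 1 table of normalized counts per assay (unit: signal), made by dividing the reads of a gene by a DESeq2 size factor. Per the labels and the study's methods, footprints of a 30 to 33 nucleotide gel slice were trimmed, freed of rRNA and tRNA reads with Bowtie2, aligned to mm10 with TopHat2 2.0.11, filtered on mapping quality (SAMtools) and counted in coding sequences without the first 15 and last 5 codons, after merging 3 technical replicates. Whole reads were recovered for 100% of values (tolerance 0.01 reads).

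The test for genes with a mean of at least 10 was that of limma 3.58.1 in R 4.3.3, two-sided, on log2(value + 1). TE, tested for genes at 10 or more in all 12 libraries, paired both libraries of a clone by the clone number in the labels, whose deviations from the genotype means correlated at r = 0.218 to 0.681. Clones of different genotypes share no number. DESeq2 1.42.0 and edgeR 4.0.16 were run on recovered reads. The tests were also run on simulated reads with a common dispersion per assay. These were drawn for mRNA and RPF independently, with no shared clone effect, so they cannot show how the paired TE test behaves here. The Babel test used in the study for TE was not run. Lengths, regions and windows came from GENCODE M21 and the mm10 genome. Density used the longest coding transcript.

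The 7 members and all lists were chosen with earlier results of these data known. Named were the members, list genes that passed or, where none did, the extremes, the 3 genes most like *Fth1* and *Tfrc*, ferritin copies, and motif genes that passed, which were chosen after their values were seen, as were *Hba-a1*, *Slc40a1*, *Alas2*, *Serpina3g* and list genes called by another tool or without a clone. TMM factors, other pseudocounts (0.5 and 5), no filter, array weights, chromosome medians and leaving out each clone were tried as alternatives. A further result for the lists is not reported here.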

Additional observations from a re-analysis of the deposited data

How the results depend on the processing

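The threshold was crossed by 1 member for mRNA, 2 for RPF and 0 for TE. For mRNA it was 2 with DESeq2, with array weights and with chromosome medians removed, since *Ftl1* joined *Fbxl5*. For RPF it was 1 without a filter and with TMM factors, 4 with DESeq2, 5 with array weights, 3 with chromosome medians removed (*Fth1*, *Ftl1* and *Tfrc*), and 1 to 4 when a clone was left out, the highest being without *WT* clone 28. For TE it was 1 with DESeq2 and 2 with array weights. Without the replicate block, that is without pairing the libraries of a clone, it was 0, and the block changed no call among the members. Of 258 values under alternatives, 229 kept their direction and their side of the threshold. The sign of TE turned with array weights for *Ncoa4* (0.14), and among fits that left out a clone for *Ncoa4* (from -0.39 to 0.25, positive without clone 28), *Ftl1* (from -0.41 to 0.09, positive without clone 11 or 36) and *Ireb2* (from -0.02 to 0.20, negative without clone 11). The cause was not tested.

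Over all genes, 344 rose and 443 fell in mRNA, against 591 and 692 with DESeq2 and 1454 and 1505 with array weights. In RPF it was 300 and 443, against 882 and 917 with array weights, and 62 and 164 without clone 13. For TE it was 0 and 2, against 16 and 38 with DESeq2 and 416 and 380 with array weights. The *WT* percentile of footprint density was 47.6 for *Tfrc*, 42.0 for *Fth1* and 18.3 for *Fbxl5* with all exons joined, and 53.6, 17.6 and (for *Ireb2*) 10.5 among genes at 100 or more in all libraries. With the shortest transcript of the same coding length, an alternative chosen after seeing the data, it was 11.0 for *Fth1* and 3.98 for *Fbxl5*. The *Aco1* to *Ireb2* ratio was not computed, because *Aco1* had 0 to 2 reads.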
